A study of Homo sapiens with 24 samples.

Results

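FBXO32, TSC22D3, KLF2 and TXNIP are 4 of the 58735 genes of the count table, picked by gene symbol as growth-arrest genes of the FOXO and glucocorticoid programs. They were selected with earlier results of these libraries in view. Their responses to the MPS1 inhibitor reversine and to loss of cGAS are therefore given as descriptions without a test. All 4 were counted in each of the 24 libraries. Counts per library were between 52 and 593 for FBXO32, 119 and 800 for KLF2, 235 and 1109 for TSC22D3, and 2431 and 35422 for TXNIP.

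RNA was sequenced from OE33 and SK-GT-4, established human cell lines of esophageal adenocarcinoma. In each line, a Cas9 control that kept CGAS (empty vector) was set beside a cGAS KO made with CRISPR-Cas9. Cells received DMSO or the MPS1 inhibitor (MPS1i) reversine at 500 nM for 48 hours, and each of the 8 groups held 3 libraries, 1 per batch. Reversine was the only inhibitor in these libraries, so MPS1 inhibition and other effects of the drug cannot be told apart. The labels do not name the clones, so each genotype of a line is treated as 1 clone grown in 3 batches, and a difference between clones and an effect of losing cGAS cannot be told apart.

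FOXO factors are transcription factors that insulin and growth-factor signalling keep out of the nucleus. When that signalling drops, they enter it and switch on genes of cell cycle arrest, autophagy and protein breakdown. The glucocorticoid receptor NR3C1 drives a partly shared set of genes once its steroid ligand binds. FBXO32 (atrogin-1) is the substrate-binding subunit of a ubiquitin ligase and a FOXO target best known from wasting muscle. TSC22D3 (GILZ) is a leucine zipper protein induced by glucocorticoids and by FOXO factors. KLF2 is a zinc finger transcription factor tied to quiescence in lymphocytes and endothelium, and TXNIP is an alpha-arrestin that binds thioredoxin, limits glucose uptake and is controlled by the glucose sensor MondoA.

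The stretch before a transcription start is shown for the members in which the FOXO recognition letters TGTTTAC occurred, since FOXO control is the property by which the genes were grouped. RefSeq windows of 250 bases before a start (GRCh38.p14) were found for TSC22D3 (4 starts), KLF2 (1 start) and TXNIP (2 starts). TGTTTAC, on either strand, stood in 2 of these 7 windows, and in 2.98% of the 35116 RefSeq promoter windows of that length. The capitals mark it, and bases that overlap an annotated exon of the gene are left off.
TSC22D3, chrX:107717136-107717312, minus strand: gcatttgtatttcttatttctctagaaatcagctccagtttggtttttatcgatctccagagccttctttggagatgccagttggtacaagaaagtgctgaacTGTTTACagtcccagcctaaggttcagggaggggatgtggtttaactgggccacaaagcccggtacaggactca
TXNIP, chr1:145996580-145996829, minus strand: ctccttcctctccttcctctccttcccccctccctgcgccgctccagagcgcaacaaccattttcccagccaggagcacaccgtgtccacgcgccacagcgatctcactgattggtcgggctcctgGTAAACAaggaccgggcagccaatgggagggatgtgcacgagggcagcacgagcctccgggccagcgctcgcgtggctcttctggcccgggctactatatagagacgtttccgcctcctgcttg
The TSC22D3 match read along the gene and the TXNIP match on the opposite strand. Of the other letters searched on both strands, the glucocorticoid receptor half-site AGAACA (12.4% of all windows) and the E-box CACGTG (6.35%) stood in 0 of the 7 windows, and the CACCC box CCACCC, bound by KLF factors (31.3%), in 1, at another start of TSC22D3. These are letter matches in short windows and do not show that a factor binds there.

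Totals per library were between 15561268 and 25284177 counts. CGAS stood at 14.7 to 41.6 CPM (counts relative to the library total, scaled by TMM factors over all libraries) in the 12 Cas9 libraries. It stood at 2.22 to 6.09 CPM in all but 1 of the KO libraries. The exception was the OE33 KO library in DMSO of batch 2, with 15.6 CPM, and values of OE33 KO cells are also given without it where they moved. In SK-GT-4, the Cas9 library in MPS1i of batch 2 and the KO library in DMSO of batch 1 stood apart in their epithelial markers, and values without each are given likewise. Of the epithelial markers, KRT8, KRT18, KRT19 and EPCAM were expressed throughout, CDH1 went down to 3.83 CPM in SK-GT-4, and the immune markers PTPRC, CD3E and CD68 did not exceed 0.285 CPM in any library. CD14, the fourth immune marker, stood at 1.33 to 34.5 CPM and was at 0 in no library, and in OE33 it rose in KO cells in DMSO by a log2 value of 1.23 (1.29 without the library of 15.6 CPM). The fibroblast markers COL1A1 and COL1A2 reached 71.6 and 10.2 CPM, while DCN and LUM did not exceed 0.0537 and 0.693 CPM. The endothelial markers CDH5 and PECAM1 reached 15.0 and 9.19 CPM in SK-GT-4, while VWF did not exceed 0.362 CPM.

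**Figure D1:**
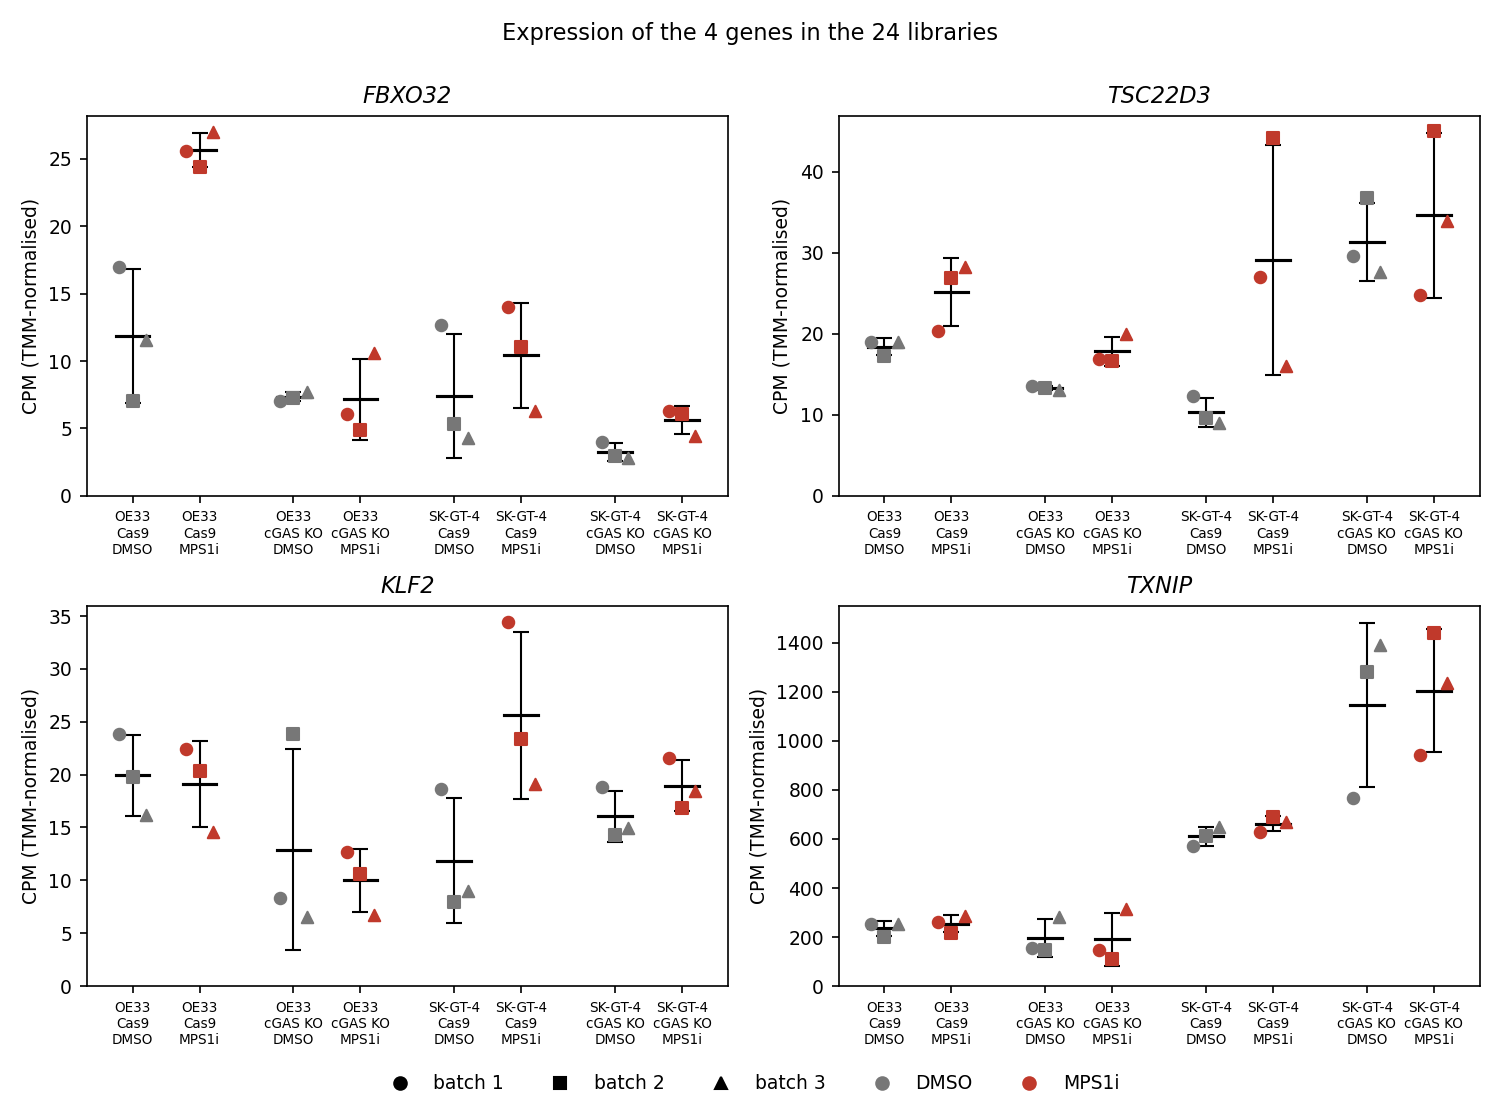
Level of each gene in CPM (TMM-normalised, linear axis from 0) in all 24 libraries, by cell line, genotype and treatment. Symbols give the batch (grey, DMSO, red, MPS1i), black lines the mean and bars the SD of 3 libraries. FBXO32 stands highest in MPS1i-treated OE33 Cas9 cells (25.7 CPM), TSC22D3 of SK-GT-4 is low only in Cas9 cells in DMSO (10.3 CPM), and TXNIP is highest in SK-GT-4 KO cells.

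Per kilobase of gene length, TXNIP was the most abundant of the 4, with group means of 52.8 to 333 CPM per kb. KLF2 followed with group means of 4.96 to 12.7 CPM per kb, TSC22D3 with 2.17 to 7.26, and FBXO32 with 0.439 to 3.47. TXNIP ranked above 96.7% of the tested genes in OE33 and above 99.5% in SK-GT-4 by mean CPM.

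FBXO32 (ENSG00000156804, 8:123497889-123541206, minus strand, GRCh38) was higher in MPS1i than in DMSO in OE33 Cas9 cells, whereas the matching KO cells overlapped between treatments. In OE33 Cas9 cells it stood at 17.0, 7.03 and 11.6 CPM in DMSO and at 25.6, 24.4 and 27.0 CPM in MPS1i in batches 1, 2 and 3. All MPS1i libraries lay above all DMSO libraries, and they lay closer together. In OE33 KO cells the values were 7.05, 7.28 and 7.71 CPM in DMSO and 6.04, 4.86 and 10.6 CPM in MPS1i, which overlapped. The fitted log2 fold change was 1.13 ± 0.23 (SE, n = 3 batches) in Cas9 cells and -0.10 ± 0.24 in KO cells. Within batches, the log2 response was larger in Cas9 than in KO cells by 0.81, 2.36 and 0.76, so the sign was the same in every batch. The fitted difference was 1.23 ± 0.33 on the log2 scale, and it was 0.74 without batch 2. Without the KO library in which CGAS stood at 15.6 CPM, the KO value was 0.08 and the difference 1.06.

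SK-GT-4 did not show that split for FBXO32, although both genotypes had higher values in MPS1i. Cas9 cells held 12.7, 5.30 and 4.27 CPM in DMSO and 14.0, 11.0 and 6.29 CPM in MPS1i. Each batch was higher in MPS1i, but the groups overlapped, because batch 1 was high in both. KO cells held 3.98, 2.96 and 2.79 CPM in DMSO and 6.33, 6.10 and 4.44 CPM in MPS1i, without overlap. The log2 fold changes were 0.56 ± 0.28 in Cas9 and 0.81 ± 0.29 in KO cells, and their difference was -0.25 ± 0.40. Between the lines, the log2 response of OE33 exceeded that of SK-GT-4 by 0.60 in Cas9 cells and was 0.89 below it in KO cells.

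Across the 8 groups, FBXO32 was highest in MPS1i-treated OE33 Cas9 cells (25.7 ± 1.29 CPM, SD, n = 3). Next came OE33 Cas9 in DMSO (11.9 ± 4.98) and SK-GT-4 Cas9 in MPS1i (10.4 ± 3.90). Below these lay SK-GT-4 Cas9 in DMSO (7.41 ± 4.58), OE33 KO in DMSO (7.35 ± 0.338) and OE33 KO in MPS1i (7.16 ± 3.02). The SK-GT-4 KO groups were lowest, with 5.62 ± 1.03 CPM in MPS1i and 3.25 ± 0.642 in DMSO. In this order, only the first and the last step separated groups that did not overlap.

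TSC22D3 (ENSG00000157514, X:107713221-107777342, minus strand) gave the opposite picture, with the genotype split in SK-GT-4. In SK-GT-4 Cas9 cells it stood at 12.4, 9.65 and 8.95 CPM in DMSO and at 27.1, 44.2 and 16.1 CPM in MPS1i, without overlap. SK-GT-4 KO cells already held 29.6, 36.7 and 27.7 CPM in DMSO, and 24.8, 45.1 and 33.9 CPM in MPS1i, which overlapped. The untreated KO cells (31.3 ± 4.78 CPM) thus lay at the level of MPS1i-treated Cas9 cells (29.1 ± 14.2 CPM). The log2 fold change in MPS1i was 1.40 ± 0.29 in Cas9 and 0.14 ± 0.29 in KO cells. The difference between the genotypes was 1.37, 1.89 and 0.54 in the 3 batches and 1.26 ± 0.41 in the fit.

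The MPS1i-treated SK-GT-4 Cas9 library of batch 2 carried the highest TSC22D3 of its group and also stood apart in its epithelial marker sum (8636 CPM, against 3837 and 4521 CPM in the other two). Without it, the Cas9 log2 fold change of TSC22D3 was 1.14 and the difference between genotypes 0.99. The part of that library's make-up in the TSC22D3 value was not tested.

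In OE33, TSC22D3 had like responses in both genotypes from different starting levels. Cas9 cells held 19.0, 17.2 and 19.0 CPM in DMSO and 20.4, 26.9 and 28.2 CPM in MPS1i. KO cells held 13.6, 13.3 and 13.1 CPM in DMSO and 16.9, 16.7 and 19.9 CPM in MPS1i. In neither genotype did the treatments overlap. The log2 fold changes were 0.41 ± 0.14 and 0.40 ± 0.14, with a difference of 0.01 ± 0.20 (95% interval -0.41 to 0.44). Across the 8 groups, TSC22D3 was highest in SK-GT-4 KO cells in MPS1i (34.6 ± 10.1 CPM) and DMSO, followed by SK-GT-4 Cas9 in MPS1i and OE33 Cas9 in MPS1i (25.1 ± 4.20), groups that overlapped with their neighbours in this order. Below them came OE33 Cas9 in DMSO (18.4 ± 1.02), OE33 KO in MPS1i (17.9 ± 1.80), OE33 KO in DMSO (13.3 ± 0.279) and SK-GT-4 Cas9 in DMSO (10.3 ± 1.80). Of these last steps, only that between 18.4 and 17.9 CPM joined groups that overlapped.

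KLF2 (ENSG00000127528, 19:16324817-16327874, plus strand) resembled TSC22D3 in SK-GT-4. Cas9 cells there held 18.6, 7.97 and 8.99 CPM in DMSO and 34.4, 23.3 and 19.1 CPM in MPS1i, without overlap. KO cells held 18.8, 14.3 and 15.0 CPM in DMSO and 21.6, 16.9 and 18.4 CPM in MPS1i, with overlap. The log2 fold change was 1.16 ± 0.24 in Cas9 and 0.26 ± 0.24 in KO cells. The Cas9 response was the larger one in each batch, by 0.68, 1.30 and 0.78, and by 0.90 ± 0.33 in the fit.

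In OE33 Cas9 cells, KLF2 overlapped between treatments, with 23.8, 19.8 and 16.1 CPM in DMSO against 22.4, 20.4 and 14.6 CPM in MPS1i (log2 fold change -0.10 ± 0.27). The OE33 KO cells held 8.30, 23.8 and 6.56 CPM in DMSO and 12.6, 10.6 and 6.77 CPM in MPS1i. The 23.8 CPM came from the KO library whose CGAS level was 15.6 CPM, and every other OE33 KO library was below every OE33 Cas9 library. The log2 fold change in KO cells was -0.30 ± 0.28 with this library and 0.35 without it. The genotype difference of the response turned from 0.20 to -0.44 and is therefore left without a direction. Leaving out that library moved the KLF2 difference of KO from Cas9 cells in DMSO from -0.77 to -1.41. KLF2 group means were highest in SK-GT-4 Cas9 cells in MPS1i (25.6 ± 7.90 CPM), next in OE33 Cas9 in DMSO (19.9 ± 3.85) and MPS1i (19.1 ± 4.07), SK-GT-4 KO in MPS1i (19.0 ± 2.40) and DMSO (16.0 ± 2.41), OE33 KO in DMSO (12.9 ± 9.50) and SK-GT-4 Cas9 in DMSO (11.9 ± 5.89), and lowest in OE33 KO cells in MPS1i, and all neighbours in that order overlapped.

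TXNIP (ENSG00000265972, 1:145992435-145996600, minus strand) differed between lines, and between the genotypes of SK-GT-4, far more than between treatments. OE33 Cas9 cells held 254, 201 and 252 CPM in DMSO and 263, 217 and 284 CPM in MPS1i. SK-GT-4 Cas9 cells held 571, 611 and 649 CPM in DMSO and 629, 689 and 671 CPM in MPS1i. Each of the 6 Cas9 pairs was higher in MPS1i, by a log2 value of 0.05 to 0.18, and the treatments overlapped in both lines. The Cas9 log2 fold change was 0.08 ± 0.18 for OE33 and 0.12 ± 0.24 for SK-GT-4. In KO cells it was -0.10 ± 0.18 and 0.09 ± 0.24, and the genotype differences were 0.18 ± 0.26 and 0.03 ± 0.34. Without the SK-GT-4 KO library in DMSO of batch 1, the KO value of that line was -0.08.

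KO cells varied more in TXNIP between batches than Cas9 cells. OE33 KO cells held 155, 148 and 283 CPM in DMSO and 147, 112 and 315 CPM in MPS1i, so that batch 3 alone reached the Cas9 level. SK-GT-4 KO cells held 766, 1283 and 1391 CPM in DMSO and 942, 1440 and 1235 CPM in MPS1i, with batch 1 lowest in both. The order of group means was SK-GT-4 KO (1206 ± 251 CPM in MPS1i, 1147 ± 334 in DMSO), SK-GT-4 Cas9, OE33 Cas9 and OE33 KO (196 ± 76.1 in DMSO, 192 ± 109 in MPS1i), and the treatments of a genotype overlapped in each. The first and the second of these steps were free of overlap, and the OE33 genotypes overlapped. The mitochondrial share of counts was 5.10 to 8.94% in all OE33 libraries of batch 3 and 1.34 to 2.31% in the other OE33 libraries. In SK-GT-4 KO cells it was 1.21 and 1.64% in batch 1 and 5.66 to 11.3% in batches 2 and 3. The SK-GT-4 KO library of batch 1 in DMSO also had the highest epithelial marker sum of its line, 19356 CPM. The part of these values in TXNIP was not tested.

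**Figure D2:**
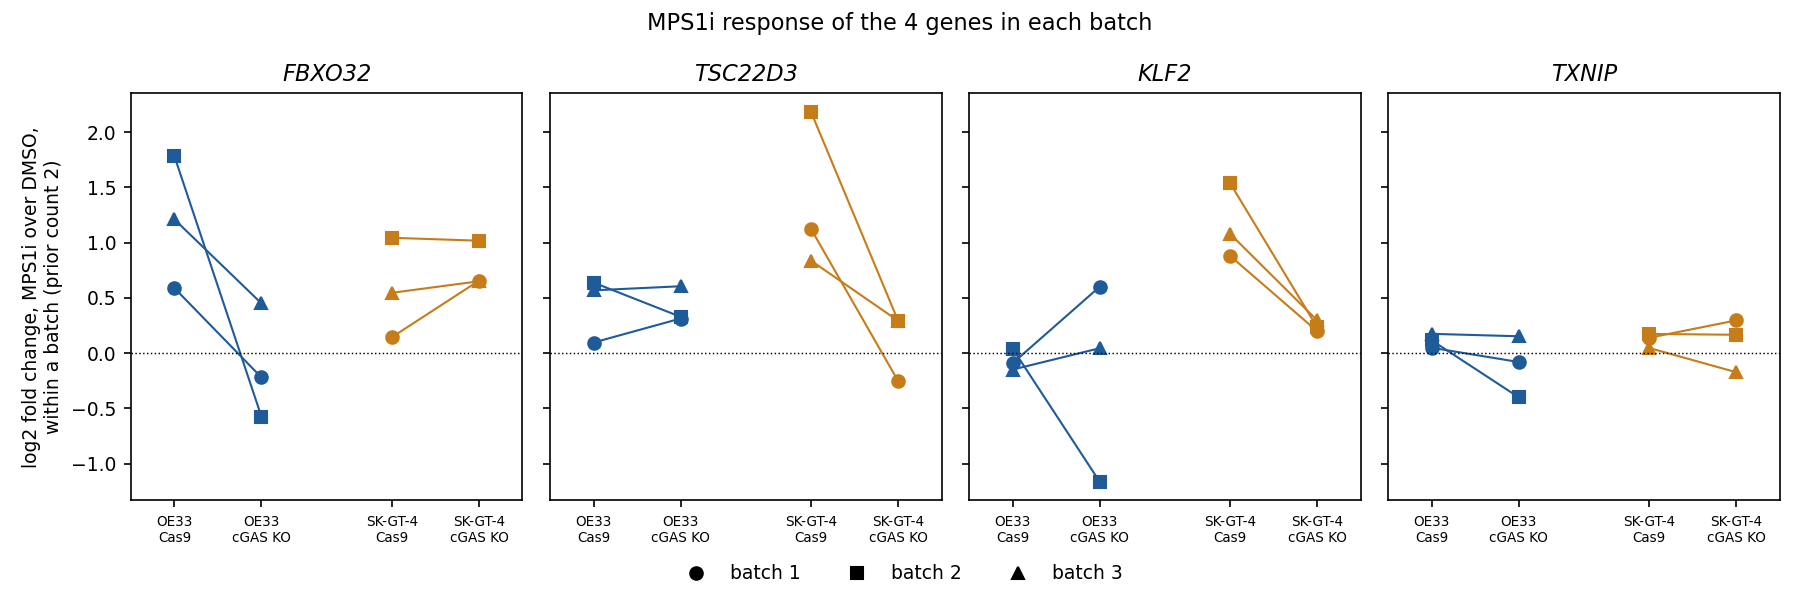
Log2 fold change of MPS1i over DMSO within each batch (prior count 2) for the 4 genes, with Cas9 and KO cells of a batch joined by a line (blue, OE33, orange, SK-GT-4) and symbols for the batch. The lines of FBXO32 slope down from Cas9 to KO in all OE33 batches, those of TSC22D3 and KLF2 in all SK-GT-4 batches, and the TXNIP values lie between -0.40 and 0.30.

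Set against all genes, few responses passed the test in this fit. In OE33 Cas9 cells, 0.00490% of 20426 genes were called for MPS1i (adjusted p at most 0.01, edgeR's quasi-likelihood test), which was CYP1A1 alone, and 0 of the 4 members were. In OE33 KO cells, in SK-GT-4 cells of either genotype, and for the difference between genotypes in either line, 0.00% of genes and 0 members were called. An unadjusted p under 0.05 was reached by 1420 genes in each OE33 genotype, and by 566 genes in Cas9 and 317 in KO cells of SK-GT-4 (22782 tested). For the genotype difference it was reached by 550 genes for SK-GT-4 and 383 for OE33. Evenly spread p-values would put a share of 0.05 of the tested genes there. Each OE33 genotype exceeded that share, while each SK-GT-4 genotype and the difference in each line fell short of it. These counts are therefore not read as counts of responding genes. DESeq2 called 22 genes in OE33 Cas9, 6 in OE33 KO, 1 in SK-GT-4 Cas9 and 0 in SK-GT-4 KO cells, and 0 for the genotype difference in either line. With a block per genotype and batch, edgeR called 93 genes in OE33 Cas9 and 101 in OE33 KO cells, and 0 in SK-GT-4 cells and for the differences. The study, with ComBat before DESeq2 and the same limit, reported far more genes raised by MPS1i in Cas9 cells of each line. The reason for that gap was not tested, so the few calls here do not show that few genes responded.

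MPS1i and DMSO libraries did not overlap for 2 of the 4 members in OE33 Cas9 cells (9.49% of all tested genes) and 2 of 4 in SK-GT-4 Cas9 cells (9.05%). In KO cells they did not overlap for 1 of 4 in OE33 (5.15%) and 1 of 4 in SK-GT-4 (3.99%). Since the members were chosen on these contrasts, nothing is read from the counts. The median log2 fold change of the members was 0.25 in OE33 Cas9, -0.10 in OE33 KO, 0.86 in SK-GT-4 Cas9 and 0.20 in SK-GT-4 KO cells. Leaving out a batch or library, these medians ranged from 0.21 to 0.36, -0.35 to 0.23, 0.65 to 1.07 and 0.14 to 0.28 in that order, and that of OE33 KO cells was 0.22 without the library of 15.6 CPM CGAS, so it has no settled sign. Over all tested genes it was 0.01, 0.0025, 0.04 and 0.04.

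KO and Cas9 cells also differed in the members without MPS1i, in directions that depended on the line. In OE33, all 4 members were lower in KO cells in DMSO, with log2 differences of -0.68 ± 0.24 for FBXO32, -0.50 ± 0.14 for TSC22D3, -0.77 ± 0.28 for KLF2 and -0.37 ± 0.18 for TXNIP. Only TSC22D3 separated the genotypes without overlap (1 of 4 members, against 12.1% of all genes), and 0 of 4 were called (1.47% of all genes). The FBXO32 difference was -0.29 without batch 1 and -0.96 without batch 2. Without the KO library of 15.6 CPM CGAS, the differences were -0.87 for FBXO32, -0.50 for TSC22D3, -1.41 for KLF2 and -0.38 for TXNIP. In MPS1i, FBXO32 was 1.91 ± 0.24 lower on the log2 scale in OE33 KO cells. There, 1 of 4 members was called (2.84% of all genes) and 3 of 4 did not overlap (18.0% of all genes). Nothing is read from these counts, since the libraries are among those on which the members were chosen.

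In SK-GT-4 KO cells in DMSO, FBXO32 was again lower (-1.08 ± 0.29), but TSC22D3 (1.57 ± 0.29), TXNIP (0.86 ± 0.25) and KLF2 (0.51 ± 0.24) were higher than in Cas9 cells. FBXO32, TSC22D3 and TXNIP did not overlap between genotypes (3 of 4, against 20.8% of all genes), and 0 of 4 members were called (1.76% of all genes). In MPS1i the log2 differences were -0.83 for FBXO32, 0.31 for TSC22D3, -0.40 for KLF2 and 0.84 for TXNIP. TXNIP alone did not overlap (1 of 4, against 22.9% of all genes), and 0 of 4 were called (1.41% of all genes). FBXO32 was thus the member with lower means in KO cells in both lines and both treatments.

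Epithelial genes moved with genotype in SK-GT-4. The summed level of the 5 epithelial markers was 3678 to 8636 CPM in its Cas9 and 9021 to 19356 CPM in its KO libraries. CDH1 and EPCAM, which encode cell adhesion proteins, rose in KO cells in DMSO by a log2 value of 3.53 and 2.71, and both were called. In OE33 that sum was 16301 to 20331 CPM in Cas9 and 17148 to 22543 CPM in KO libraries. In bulk RNA, a change in the share of cells of a kind and a change in RNA per cell cannot be told apart, and the part of this shift in the TSC22D3 and TXNIP values was not tested.

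Genes near the members on their chromosomes were set beside them, since clones can differ in copy number. Within 5 Mb of FBXO32, 27 of 34 expressed genes (mean of at least 1 CPM) were lower in OE33 KO than in Cas9 cells in DMSO, with a median log2 difference of -0.34. FBXO32 lay below that median, with 4 of the 34 neighbours lower still. In MPS1i the neighbours' median was -0.49, and 2 of the 34 lay below FBXO32. In SK-GT-4 the 39 neighbours of FBXO32 had a median of 0.10 in DMSO, and 1 lay below it. The 59 neighbours of TXNIP in OE33 had a median of -0.29, close to the value of TXNIP itself, whereas the 65 in SK-GT-4 had a median of 0.10. The neighbours of TSC22D3 had medians of 0.09 in OE33 (29 genes) and -0.07 in SK-GT-4 (28 genes), and those of KLF2 -0.16 (153 genes) and -0.01 (176 genes). Without the OE33 KO library of 15.6 CPM CGAS, the OE33 medians in DMSO were -0.39 around FBXO32, 0.19 around TSC22D3, -0.39 around KLF2 and -0.23 around TXNIP. For the genotype difference of the MPS1i response in OE33, the 34 neighbours of FBXO32 had a median of 0.21. Of these, 3 were below 0, and FBXO32, at 1.23, lay above 32 of them. The medians of that difference in SK-GT-4 were -0.14 around TSC22D3 and 0.06 around KLF2. The part of the neighbours' shift in the FBXO32 difference was not tested. DNA copy number was not analysed here.

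**Figure D3:**
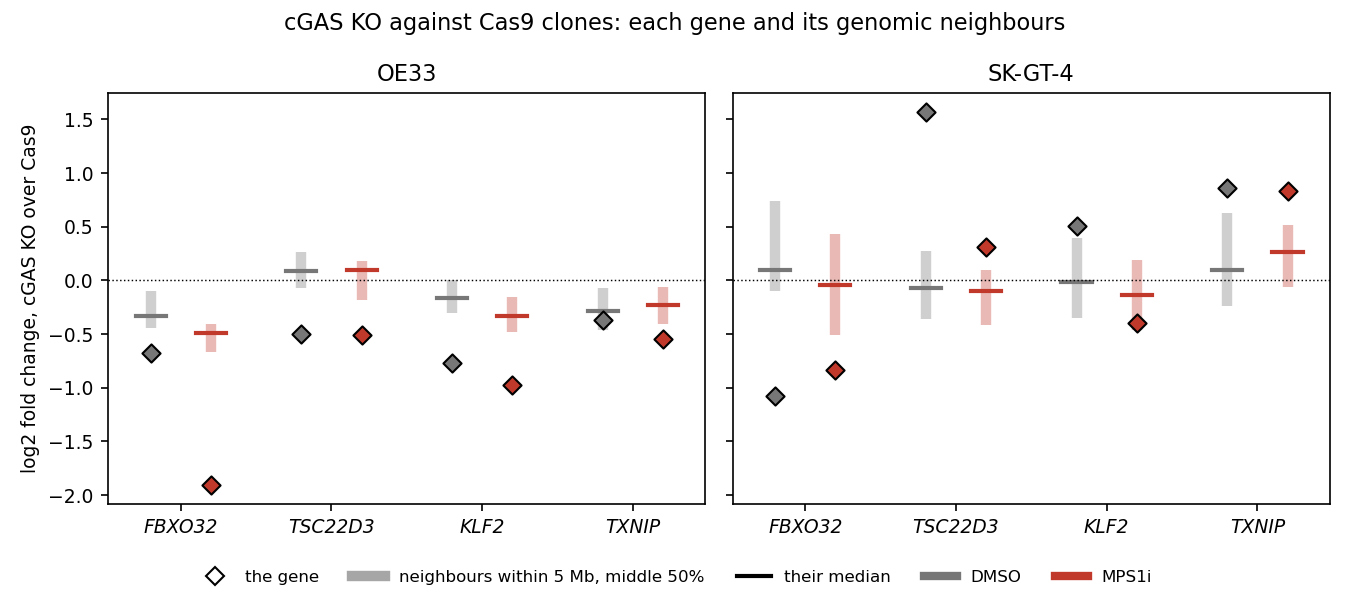
Log2 fold change of cGAS KO over Cas9 cells in each line (diamonds, the member) beside genes within 5 Mb of it (bar, middle 50%, and line, median), in DMSO (grey) and MPS1i (red). FBXO32 lies below the middle 50% of its neighbours in both lines, and TSC22D3 of SK-GT-4 lies above it, further so in DMSO.

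The untreated Cas9 cells of the lines were compared as well. Their libraries are also the baseline of the contrasts on which the members were selected, so this test is not independent of that choice. TXNIP was 2.59-fold lower in OE33 (235.6 ± 30.3 CPM, SD, n = 3) than in SK-GT-4 (610.4 ± 39.1 CPM), a log2 difference of -1.37 ± 0.33 with an adjusted p of 0.00198 by edgeR's quasi-likelihood test. It passed in the company of 22.0% of 25181 genes, was lower in 3 of 3 batches, and did not pass without batch 1 (adjusted p = 0.0130) or without batch 2 (adjusted p = 0.0292). TSC22D3 (0.84 ± 0.28, adjusted p = 0.0249), KLF2 (0.75 ± 0.39, adjusted p = 0.151) and FBXO32 (0.68 ± 0.38, adjusted p = 0.182) did not pass edgeR's test at 0.01. The median over all genes was -0.14.

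The pathway genes around the members were examined in the same fits. Their lists were written from general knowledge, but with earlier results of these data known. Of the 22 FOXO target genes, 20 passed the filter on low counts for OE33, 21 for SK-GT-4, and 0 were called for MPS1i in any group. Their log2 fold changes were above 0 in 17 of 20 genes in OE33 Cas9 (median 0.27), 17 of 20 in OE33 KO (0.23), 15 of 21 in SK-GT-4 Cas9 (0.18) and 18 of 21 in SK-GT-4 KO cells (0.30). Over all genes the medians were 0.01, 0.0025, 0.04 and 0.04. Leaving out the libraries that stood apart, counts above 0 were 16 of 20 in OE33 KO (0.18), 20 of 21 in SK-GT-4 Cas9 (0.48) and 16 of 21 in SK-GT-4 KO cells (0.07). The median of the list was thus above that of all genes in each group, with and without these libraries. As the list was chosen with earlier results of these data known, this is a description only.

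PIK3IP1, an inhibitor of PI3-kinase, showed 1.07 ± 0.22 in OE33 Cas9, 0.77 ± 0.22 in OE33 KO, 0.67 ± 0.32 in SK-GT-4 Cas9 and 0.64 ± 0.32 in SK-GT-4 KO cells. GABARAPL1, an autophagy gene named after its values were seen, showed 0.99 ± 0.25, 0.95 ± 0.25, 0.76 ± 0.30 and 0.84 ± 0.30 in that order. Without the library that stood apart in each, GABARAPL1 was 0.57 in OE33 KO, 0.98 in SK-GT-4 Cas9 and 0.51 in SK-GT-4 KO cells. PIK3IP1 and GABARAPL1 were above 0 in all 3 batches of each genotype and line. CDKN1B, the cyclin-dependent kinase inhibitor p27, had 0.40 ± 0.13, 0.22 ± 0.13, 0.09 ± 0.22 and 0.08 ± 0.22, and CCNG2, an atypical cyclin, 0.30 ± 0.14, 0.19 ± 0.14, 0.50 ± 0.25 and 0.20 ± 0.25. TRIM63, the other muscle wasting ligase, did not exceed a group mean of 0.0325 CPM and was not tested. None of these genes was called with all libraries, and GABARAPL1 was called in SK-GT-4 Cas9 cells once both libraries that stood apart in that line were left out (0.93 ± 0.18).

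Of the glucocorticoid receptor targets in OE33, 6 of 13 tested genes were above 0 in Cas9 (median -0.0068) and 7 of 13 in KO cells (0.18), the latter 6 of 13 (-0.0033) without the library of 15.6 CPM CGAS. In SK-GT-4, 10 of 13 were above 0 in Cas9 cells (0.37) and 7 of 13 in KO cells (0.16), and 0 were called in either line. Without the library that stood apart in each, they were 8 of 13 in Cas9 (0.11) and 8 of 13 in KO cells (0.08). FKBP5, a sensitive target of the receptor, had log2 fold changes of -0.38 ± 0.15 in OE33 Cas9 and -0.87 ± 0.35 in SK-GT-4 Cas9 cells. The latter was -0.56 without the Cas9 library in MPS1i of batch 2, and all were opposite in sign to TSC22D3. PER1, a clock gene and target, had -0.07 ± 0.22 and 0.54 ± 0.31. NR3C1 itself had 0.08 ± 0.12 in OE33 Cas9 and -0.32 ± 0.32 in SK-GT-4 Cas9 cells (batches -0.00041, -1.07 and -0.08). The 14 upstream regulators of both programs, 13 of them tested, had 0 calls, with 6, 6, 3 and 10 genes above 0 in OE33 Cas9, OE33 KO, SK-GT-4 Cas9 and SK-GT-4 KO cells. The last 2 of these counts became 7 and 6 without the library that stood apart in each. Among them, FOXO1 had -0.07 ± 0.22 and FOXO3 0.07 ± 0.13 in OE33 Cas9 cells, and -0.26 ± 0.25 and -0.16 ± 0.34 in SK-GT-4 Cas9 cells. The SK-GT-4 Cas9 batches were -0.22, -0.56 and 0.015 for FOXO1 and -0.04, -0.66 and 0.03 for FOXO3.

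The MondoA and alpha-arrestin genes, which share control or family with TXNIP, were mixed in sign in MPS1i. Of 11 genes, 3 were above 0 in OE33 Cas9, 4 in OE33 KO, 8 in SK-GT-4 Cas9 and 7 in SK-GT-4 KO cells, and 0 were called. Without the libraries that stood apart, they were 5 in OE33 KO, 6 in SK-GT-4 Cas9 and 6 in SK-GT-4 KO cells. ARRDC4, the nearest relative of TXNIP in its control by MondoA, had -0.24 ± 0.24 in OE33 Cas9 and 0.12 ± 0.22 in SK-GT-4 Cas9 cells. MLXIP, which encodes MondoA, had -0.17 ± 0.15 and -0.47 ± 0.49, the latter from batches of -0.28, -1.47 and -0.17. ARRDC3 fell in KO cells of both lines in DMSO, by 0.96 for OE33 and by 1.66 for SK-GT-4 on the log2 scale, and both changes were called, also without the libraries that stood apart. DDIT4, an inhibitor of mTORC1 signalling, fell by 1.78 in OE33 KO cells and was called there (-2.64 without the library of 15.6 CPM CGAS). All 11 genes of this list were below 0 for OE33 KO against Cas9 in DMSO (median -0.36), or -0.43 without that library. In SK-GT-4, 5 of 11 were above 0, and 8 of 11 without the KO library in DMSO of batch 1.

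For KLF factors and KLF2 regulators, the counts in SK-GT-4 turned on single libraries. With all libraries, 4 of 15 were above 0 in SK-GT-4 Cas9 cells (median -0.09) and 14 of 15 in KO cells (0.30), beside 53.1% and 53.6% of all genes. Without the Cas9 library in MPS1i of batch 2, 14 of 15 were above 0 in Cas9 cells (0.24), and without the KO library in DMSO of batch 1, 8 of 15 were in KO cells (0.02). In OE33, 10 of 15 were above 0 in Cas9 and 8 of 15 in KO cells (11 of 15 without the library of 15.6 CPM CGAS), and 0 were called in either line. KLF4, an epithelial family member, had 0.67 ± 0.29 and KLF6 -0.15 ± 0.35 in SK-GT-4 Cas9 cells (KLF6 0.19 without that Cas9 library). In the TSC22 family, TSC22D1 had 0.57 ± 0.19 in SK-GT-4 Cas9 and 0.31 ± 0.19 in KO cells, with 1, 1, 2 and 3 of 3 genes of the family above 0 in the 4 conditions and 0 called. The partners of FBXO32 in its ligase and its substrate EIF3F (4 genes) had 3, 2, 3 and 1 above 0 and 0 called. Without the libraries that stood apart, the last 3 of these counts were 0, 0 and 2.

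**Figure D4:**
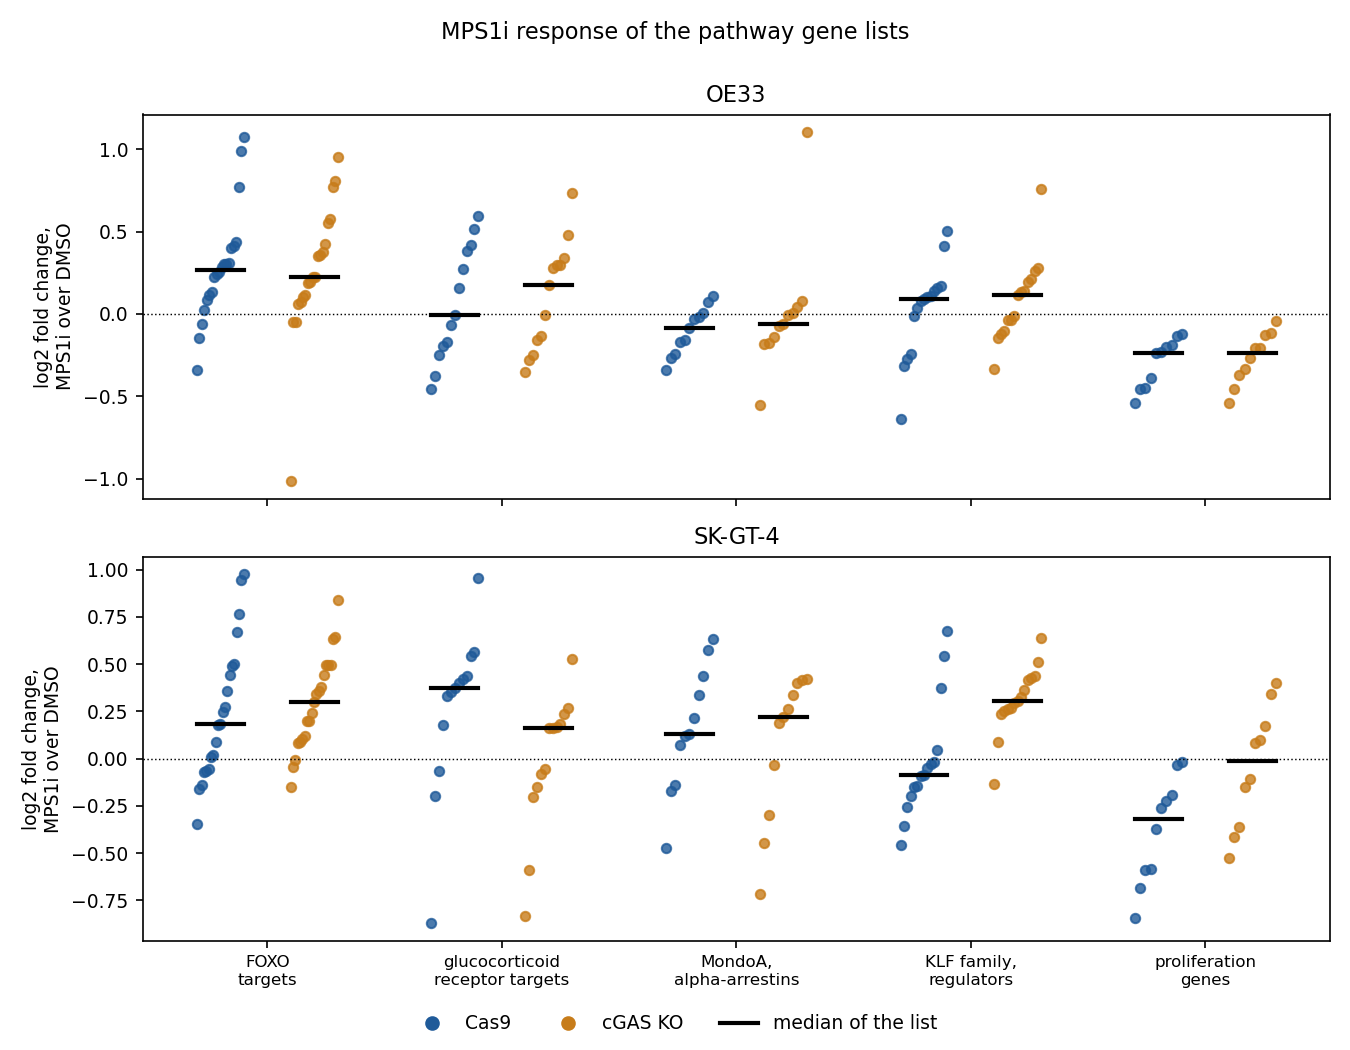
Fitted log2 fold change of MPS1i over DMSO for each tested gene of 5 lists in Cas9 (blue) and cGAS KO (orange) cells, OE33 above and SK-GT-4 below, with the median of each list as a black line (the vertical axes differ). FOXO targets have medians of 0.18 to 0.30, and all 10 proliferation genes lie below 0 except in SK-GT-4 KO cells, where 5 do (9 without the KO library in DMSO of batch 1).

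Proliferation genes had medians below 0 in MPS1i. All 10 had log2 fold changes below 0 in OE33 Cas9 (median -0.23), OE33 KO (-0.24) and SK-GT-4 Cas9 cells (-0.32), while 5 of 10 were above 0 in SK-GT-4 KO cells (-0.01). None was called. Without the libraries that stood apart, 2 of 10 were above 0 in OE33 KO (-0.21), 3 of 10 in SK-GT-4 Cas9 (-0.31) and 1 of 10 in SK-GT-4 KO cells (-0.24). CCNB1, the mitotic cyclin, had -0.39 ± 0.12, -0.37 ± 0.12, -0.26 ± 0.22 and -0.36 ± 0.22. CDK1, its kinase, had -0.12 ± 0.12, -0.13 ± 0.12, -0.02 ± 0.34 and -0.52 ± 0.34, and MKI67, a marker of cycling cells, had -0.46 ± 0.37, -0.33 ± 0.36, -0.84 ± 0.69 and 0.40 ± 0.70. The MKI67 batches in SK-GT-4 were -0.89, -2.77 and 0.10 in Cas9 cells and 1.82, -0.53 and 0.94 in KO cells. The -2.77 and the 1.82 came from the batches that hold the libraries that stood apart.

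Between the untreated Cas9 cells of the lines, several pathway genes were called beside TXNIP (adjusted p at most 0.01, edgeR's quasi-likelihood test). ARRDC4 was lower in OE33, as TXNIP was (log2 difference -2.29 ± 0.26), while MLXIP (1.76 ± 0.40) and ARRDC1 (1.58 ± 0.22) were higher. Of the glucocorticoid receptor targets, FKBP5 (2.33 ± 0.30) and ERRFI1 (2.23 ± 0.38) were higher in OE33 and the cell cycle inhibitor CDKN1C (-3.15 ± 0.36) was lower, as was NR3C1 (-1.68 ± 0.27). Of the FOXO targets, ERBB3 (3.82 ± 0.41) was higher in OE33, and CITED2 (-2.14 ± 0.28) and SESN3 (-4.40 ± 0.62) were lower. TSC22D4 (3.10 ± 0.20) and KLF4 (1.14 ± 0.28) were higher in OE33. Among the FOXO targets, 5 of 21 tested genes were called higher and 4 lower in OE33, among the glucocorticoid receptor targets 3 and 2 of 13, and among the MondoA genes 3 and 1 of 11. In the KLF list 1 and 2 of 15 were, in the TSC22 family 1 and 0 of 3, among the upstream regulators 2 and 4 of 13, among the ligase partners 0 and 0 of 4, and among the proliferation genes 1 and 1 of 10. Over all genes, 2425 were higher and 3119 lower of 25181 (22.0%).

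The members did not move as 1 group over libraries. The correlation of log2 CPM between FBXO32 and TSC22D3 was 0.80 over the 12 OE33 libraries and -0.06 over the 12 SK-GT-4 libraries, and that between KLF2 and TXNIP was -0.05 and -0.01. FBXO32 and TXNIP correlated at 0.67 for OE33 and -0.62 for SK-GT-4. The libraries share batches, clones and treatments, so these values describe the pattern only.

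Of 11718 genes expressed in both lines, MXI1, TFDP2 and AHRR were most like FBXO32, by the smaller of the correlations in OE33 and SK-GT-4 (12 libraries each). MXI1, a MYC antagonist, had 0.80 and 0.86, TFDP2, a partner of E2F factors, 0.80 and 0.79, and AHRR, the repressor of the aryl hydrocarbon receptor, 0.81 and 0.78. Most like TSC22D3 were PSCA (0.84 and 0.86), SLPI (0.80 and 0.83) and ALPP (0.82 and 0.78), of which SLPI encodes a secreted protease inhibitor. Most like KLF2 were AC122718.1 (0.74 and 0.75), RCAN1 (0.66 and 0.69), an inhibitor of calcineurin, and RAB21 (0.83 and 0.65). Most like TXNIP were RASGEF1B (0.90 and 0.95), PADI1 (0.90 and 0.92) and LCN2 (0.88 and 0.93), the iron-binding lipocalin. Some of these genes were low in SK-GT-4, with a mean of 1.09 CPM for RASGEF1B, 1.14 for AC122718.1, 1.38 for ALPP and 2.17 for PSCA. The correlations take in differences between clones, batches and treatments, so they do not show shared control.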

How the data were processed

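Libraries were made by the authors from polyadenylated RNA and read from both ends. The submitters' processing notes name HISAT2 2.0.5, featureCounts 1.5.0 and the genome build GRCh38. The deposited values are raw counts per gene, with no normalization, and the annotation release and the strand setting are not given in the sources used here. Without strand, reads of a gene and of an antisense partner cannot be told apart. All 24 columns were matched to samples by the column name in the labels.

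Within a line (12 libraries), a gene was kept if its counts summed to 5 or more and at least 4 libraries were not 0, the study's own filter. The quasi-likelihood model of edgeR 4.0.16 (R 4.3.3) held the group and the batch, TMM set the library sizes, p-values were adjusted by Benjamini-Hochberg, and 0.01 was the limit for a call. The lines were compared in 1 fit of all 24 libraries without a block. The study removed batch effects with ComBat and used DESeq2. Here the block takes the place of that correction, and DESeq2 is an alternative. DMSO and MPS1i libraries of the same batch and genotype deviated together. Their median correlation was 0.675 (0.432 to 0.811) in OE33 and 0.446 (0.104 to 0.721) in SK-GT-4. Libraries of the same batch but of different genotypes had medians of 0.502 and 0.271. The labels name the batch, and the block is a term per batch shared by both genotypes. It therefore pairs the treatments within a genotype only in part, whereas the alternative block per genotype and batch pairs them fully. P-values measure the spread between batches of 1 clone. Log2 CPM values use a prior count of 2. SE values come from the fit. No duplicated libraries were found, and the scripts were tested on simulated data.

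Members, gene lists and comparisons were chosen with earlier results of these data known. Named genes are the members, CGAS, a fixed set of close pathway genes, list genes called for MPS1i, at most 3 per list by the smallest adjusted p between genotypes or lines, and the 3 genes most like each member. CYP1A1, GABARAPL1, ARRDC3 and DDIT4 fall outside that rule and were named after their values were seen. Alternatives were edgeR's filterByExpr or no filter, DESeq2's size factors, DESeq2 1.42.0, a fit without the block, a block per genotype and batch, a prior count of 0.5, and leaving out each batch or single libraries. Leaving out the libraries that stood apart for lists and neighbours was chosen after seeing the data. Figures were drawn with matplotlib 3.10.9 in Python 3.11.15.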

Additional observations from a re-analysis of the deposited data

Results flagged for a closer look

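In a scan of 22 genes over several contrasts each, 6 results had all 3 batches moving one way in OE33 and the opposite way in SK-GT-4. With so few batches, some such patterns can arise by chance, and their number was not computed. The differences themselves were not tested. The scan also sought opposite MPS1i responses of Cas9 and KO cells within a line, and it found none. TSC22D3 was lower in KO than in Cas9 cells in DMSO in OE33 (mean log2 difference over batches -0.46) and higher in SK-GT-4 (1.60), a difference between the lines of -2.06. TSC22D1 did the reverse in DMSO, with 0.48 for OE33 and -0.60 for SK-GT-4 (difference 1.08), and in MPS1i, with 0.36 and -0.86 (difference 1.23). Its MPS1i response in KO cells was -0.17 for OE33 and 0.31 for SK-GT-4 (difference -0.48). FOXO1 differed between KO and Cas9 cells in MPS1i by -0.30 in OE33 and 0.57 in SK-GT-4 (difference -0.87). The MPS1i response of NR3C1 in Cas9 cells was 0.11 for OE33 and -0.38 for SK-GT-4 (difference 0.50). The SK-GT-4 batches were -0.00041, -1.07 and -0.08, so most of that mean came from batch 2, whose MPS1i library stood apart.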

How the results depend on the processing

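Counts of called genes depended on the settings, and some of the members' values did too. The cause was not tested. For MPS1i in OE33 Cas9 cells, 1 gene was called, against 0 with filterByExpr, 96 without a filter, 22 with DESeq2, and 0 to 2 leaving out a batch or library. In OE33 KO cells, 0 became 152 without a filter and 6 with DESeq2, for the genotype difference in OE33 0 became 28 without a filter, and in SK-GT-4 Cas9 cells 0 became 1 with DESeq2. For KO against Cas9 cells in DMSO, the 300 genes of OE33 became 189 with filterByExpr, 1046 without a filter, 737 with DESeq2 and 11 to 962 leaving out a batch or library. The 400 of SK-GT-4 became 647 without a filter, 1495 with DESeq2 and 0 to 1022 leaving out a batch or library. The 5544 genes called between the lines became 2699 to 6415 leaving out a batch or library.

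Without the batch block, calls were 0 for MPS1i in OE33 Cas9 cells, 15 for KO against Cas9 for OE33 and 191 for SK-GT-4. With a replicate block per genotype and batch they were 93 for MPS1i in OE33 Cas9 cells, 101 in OE33 KO cells, 1481 for KO against Cas9 for OE33 and 808 for SK-GT-4. KO against Cas9 lies between those blocks, so that fit leaves the spread of the genotype difference between batches out of its error. A batch block in the comparison of the lines gave 6134.

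The median of the members for MPS1i in SK-GT-4 KO cells, 0.20, was 0.17 with filterByExpr, with DESeq2's size factors and with DESeq2, and 0.14 to 0.28 leaving out a batch or library. That in OE33 KO cells, -0.10, was -0.35 to 0.23 leaving out a batch or library. Lists, neighbours and named genes were also fitted without the libraries that stood apart, a choice made after seeing the data. Without both of those in SK-GT-4, 23 genes were called for MPS1i in Cas9 cells, 4 in KO cells, 5 for the genotype difference and 2964 for KO against Cas9 in DMSO. No called value changed its sign, and TXNIP between the lines lost its call without batch 1 or batch 2. With 3 batches per group and counts as low as 52 for FBXO32, small differences were not detectable.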
